A study of Drosophila melanogaster with 12 samples.

Results

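The synaptic vesicle cycle is described here through 37 named genes for vesicle fusion, vesicle recycling and the synthesis and loading of neurotransmitter in *Drosophila melanogaster* heads. The genes were taken from a list of names, with no threshold on measured values, though earlier results of these data were known when the list was made. A gene was followed through the probe set (the group of oligonucleotide probes that an Affymetrix array reads as 1 value) whose annotation names that gene alone, and where several did so, through the one with the highest mean signal. This gave 31 of the 37 genes, out of 11981 genes that a probe set names alone. *Syx1A*, the plasma membrane syntaxin, *Syt1* and *Syt4*, which encode synaptotagmins, and *comt* and *Nsf2*, the NSF ATPases that take spent SNARE complexes apart, have no probe set listed in the annotation used here. The probe set of *stnB*, an endocytic adaptor of the stonin family, also names *stnA* and was not used.

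At a synapse, vesicles filled with transmitter dock at the active zone, are primed, and fuse with the plasma membrane when calcium enters. Fusion is driven by SNARE proteins on the vesicle and the plasma membrane, clamped by complexin and triggered by synaptotagmins. Vesicle membrane is then taken back by endocytosis, in which clathrin adaptors, membrane-bending proteins and the GTPase dynamin act in turn, and vesicular transporters refill the vesicle. The fly dynamin gene, *shi*, became known through temperature-sensitive mutants that lose vesicle recycling and are paralysed by heat.

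The study measured total RNA of whole heads on 12 arrays, 3 in each of 4 groups: the mutant Shu at 50 mM, the mutant Shu without treatment, the wild type labelled CS at 50 mM lithium, and the wild type CS without treatment. All 12 samples are labelled as an acclimatization treatment type. The labels name lithium for the treated wild type and only the dose for the treated mutant, which is called lithium-treated here since the study is titled for a lithium response. They give no age, sex, number of flies, zygosity of Shu or length of treatment, and do not say that replicates came from separate flies, so p-values measure the spread between these samples. The gene table used lists Shu and Shudderer as synonyms of *para*, the voltage-gated sodium channel gene; a probe set for its transcript reads the amount of RNA and does not check which allele is present.

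The 12 arrays had been scaled to 1 common trimmed mean before deposit, and their values are signals on a linear scale. Differences below are of log2(signal + 6.26), which understates the change of dim probe sets, and each is given with its standard error from a limma fit to all 12 arrays. A probe set is called when its p-value, adjusted by Benjamini-Hochberg over the 11261 probe sets tested, is under 0.05. Among wild-type untreated arrays, replicate 3 stood apart: it was the highest of the 12 for 14.15% and the lowest for 14.08% of all tested probe sets. Replicate 1 of the untreated mutant was the highest for 11.85% and the lowest for 11.57%. The pan-neuronal gene *elav* had signals of 310 to 455 and the glial gene *repo* of 392 to 464 over the 12 arrays, so markers of both neurons and glia were present.

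**Figure D1:**
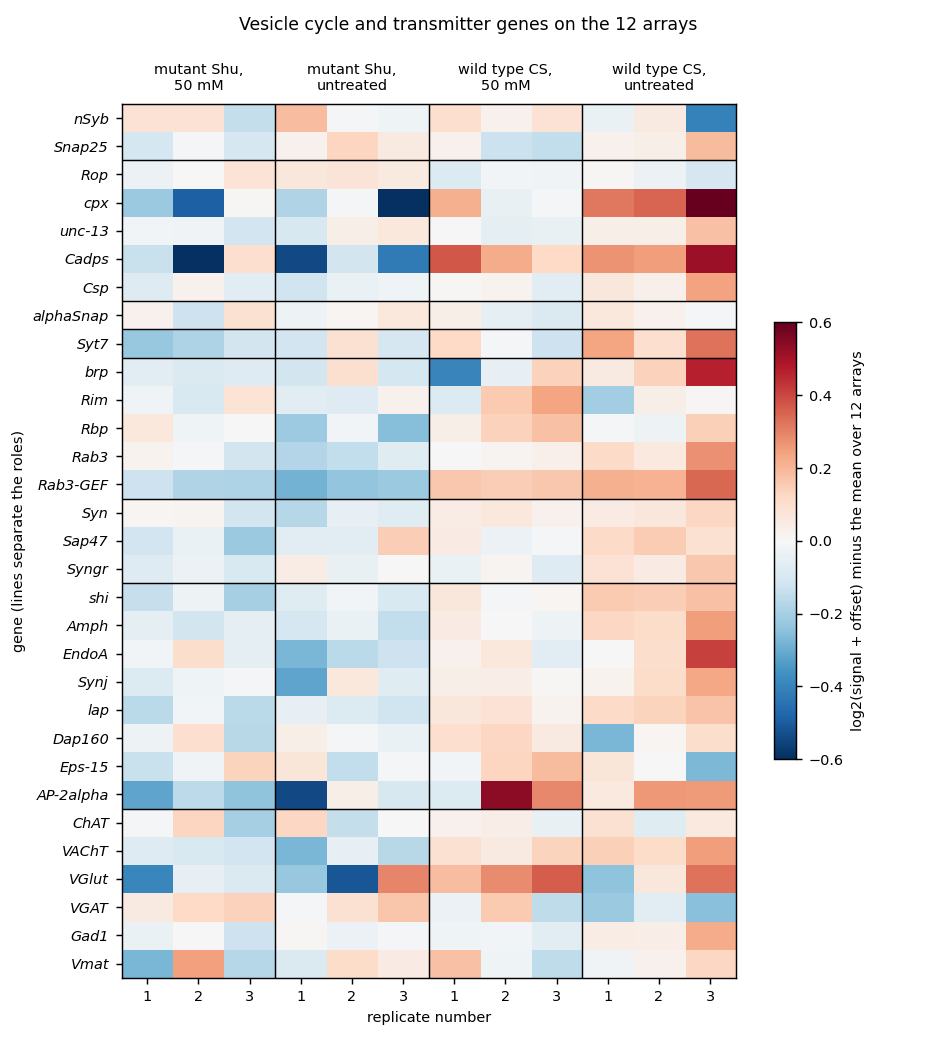
Heat map of the 31 genes, in rows grouped by role, on the 12 arrays, in columns by group and replicate. Colour is log2(signal + offset) minus the gene's mean over 12 arrays, with colours held at the ends of the scale beyond 0.6 in either direction. Untreated wild-type replicate 3 is the highest of all arrays for 18 of the 31 genes, and most called genes are redder in the CS columns than in the Shu columns.

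Without lithium, transcripts of vesicle cycle genes were lower in mutant than in wild-type heads: 9 of the 31 genes were called, all lower and none higher. They were *Rab3-GEF*, *VAChT*, *cpx*, *Cadps*, *Amph*, *Rab3*, *EndoA*, *lap* and *shi*, with differences between -0.72 for *cpx* and -0.22 for *lap* and *shi*. Of all 11261 probe sets tested, 5.07% were called in this comparison, 2.96% lower and 2.11% higher. The difference was below 0 for 25 of the 31 genes, against 48.0% of all probe sets tested, and its median over the 31 genes was -0.18, against 0.01 over all tested. Without wild-type untreated replicate 3 and mutant untreated replicate 1 the median was -0.09.

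These calls depend on single arrays and on the variance model. The count was 2 without wild-type untreated replicate 3 (*Rab3-GEF* and *VAChT*), 2 without mutant untreated replicate 1 (*Rab3-GEF* and *cpx*) and 1 without an intensity trend in the variance (*Rab3-GEF*). Over all probe sets tested the number called also dropped, to 154, 130 and 59 under these 3 alternatives, against 571. The wild-type replicate was also the highest of 12 arrays for 18 of the 31 genes. The 3'/5' log2 signal ratio of the *eIF-4a* control probe sets, which rises as RNA or its copy is shortened at the 5' end, was 2.46 to 2.65 in the untreated mutant and 2.66 to 2.96 in the untreated wild type, highest in replicate 3 of the wild type. The same ratio overlapped between the groups for the other control genes, at 0.962 to 1.07 in the mutant and 0.997 to 1.08 in the wild type for GAPDH and at 0.978 to 1.26 in the mutant and 1.18 to 1.28 in the wild type for actin, and replicate 3 was the highest for neither. The part of these array differences in the calls was not tested beyond leaving arrays out.

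*Rab3-GEF*, which encodes the exchange factor that loads the vesicle GTPase Rab3 with GTP, had signals of 370, 383 and 386 in untreated mutant heads, against 525, 524 and 576 in untreated wild-type heads. The 2 sets of arrays did not overlap, and the mutant level was 0.705 of the wild-type level (log2 -0.50 ± 0.06 SE, limma adjusted p = 0.000189). It was called in all 23 alternative settings and reduced array sets tried, with log2 differences of -0.53 to -0.44. In the gene table used, *Rab3-GEF* lies on the X chromosome, as do *para* and, between them, *shi*. Whether this position plays a part in the differences of *Rab3-GEF* and *shi* was not tested. *Rab3* itself, the GTPase that marks vesicles bound for the active zone, had signals of 1439, 1464 and 1543 in the mutant, against 1757, 1694 and 1964 in the wild type (log2 -0.28 ± 0.06, limma adjusted p = 0.0154). Again every mutant array lay below every wild-type array.

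The other active zone genes were not called. *brp* (Bruchpilot, the ELKS-family scaffold of the T-bar) had signals of 60.9, 71.4 and 61.3 in untreated mutant heads, against 69.1, 73.7 and 93.9 in untreated wild-type heads (log2 -0.26 ± 0.15, limma adjusted p = 0.347). *Rbp*, encoding a RIM-binding protein that links calcium channels to the release site, differed by -0.20 ± 0.10 (limma adjusted p = 0.269), and *Rim*, encoding the Rab3-binding scaffold RIM, by 0.02 ± 0.09 (limma adjusted p = 0.933). In these probe sets the arrays of both genotypes overlapped for all 3 genes. The 3 tested probe sets of *brp* disagreed in sign, from -0.31 to 0.30. Those of *Rim*, also 3, ran from -0.19 to 0.02, and none of either gene was called.

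**Figure D2:**
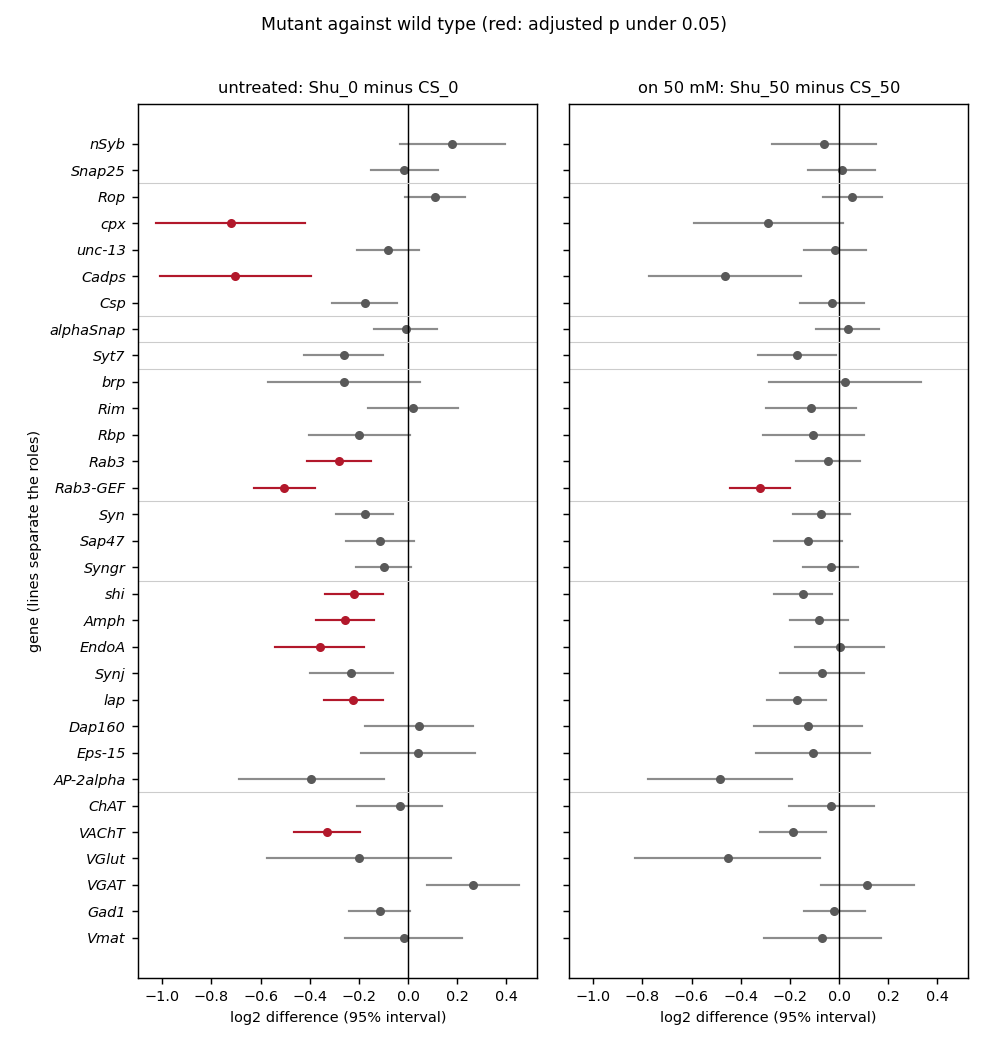
Log2 differences of mutant minus wild type for the 31 genes, with 95% intervals, in untreated and in lithium-treated heads; red marks an adjusted p under 0.05. The 9 red genes without lithium lie left of 0, and on lithium *Rab3-GEF* alone is red.

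The SNARE core and its disassembly factor did not pass the test, while 2 of the 5 genes for SNARE assembly, clamping and priming were lower. *cpx* encodes complexin, which binds assembled SNAREs and holds back spontaneous fusion. Its signals were 4413, 4971 and 3256 in untreated mutant heads, against 6227, 6368 and 8078 in untreated wild-type heads. The groups did not overlap, and the mutant level was 0.607 of the wild-type level (log2 -0.72 ± 0.14, limma adjusted p = 0.0103). *Cadps* encodes the priming factor CAPS, known for its role in dense-core vesicle release. It had signals of 577, 780 and 628 in the mutant, against 1019, 1005 and 1207 in the wild type (0.614 of the wild-type level, log2 -0.70 ± 0.15, limma adjusted p = 0.0125), and the highest mutant array was again below the lowest wild-type array.

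Both genes have a further probe set that showed no such difference. The other *cpx* probe set had signals of 1366, 1326 and 1321 in the untreated mutant, against 1351, 1312 and 1310 in the untreated wild type, a log2 difference of 0.01 ± 0.07 (limma adjusted p = 0.939). The second *Cadps* probe set gave 389, 392 and 374 in the mutant, against 369, 395 and 375 in the wild type, a log2 difference of 0.02 ± 0.06 (limma adjusted p = 0.892). For these genes the result is therefore that of 1 probe set of 2, and which transcripts each probe set reads was not analysed here.

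**Figure D3:**
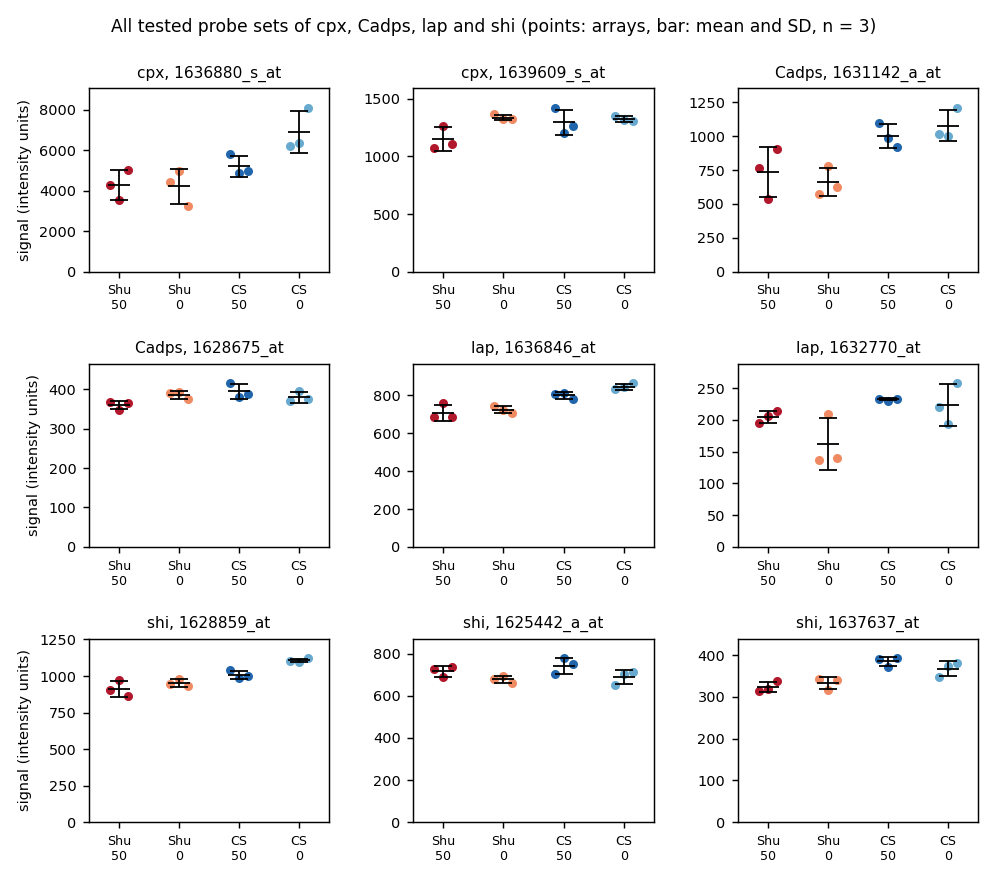
Signal in intensity units (y axes, from 0) of the 9 tested probe sets of *cpx*, *Cadps*, *lap* and *shi* in the 4 groups; points are arrays and bars the mean and SD of 3. In untreated heads the 2 probe sets of *cpx* and of *Cadps* disagree, one lower in the mutant and the other level with the wild type.

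The remaining fusion genes gave no call. *unc-13*, encoding the priming factor Unc-13, differed by -0.08 ± 0.06, and *Csp*, encoding the cysteine string protein, a co-chaperone on vesicles, by -0.18 ± 0.06 (limma adjusted p = 0.495 and 0.112). *Rop*, the Sec1/Munc18 protein that binds syntaxin, lay on the other side, with signals of 548, 551 and 542 in the mutant, against 525, 509 and 486 in the wild type (log2 0.11 ± 0.06, limma adjusted p = 0.303). *nSyb*, the neuronal synaptobrevin of the vesicle, had signals of 640, 559 and 553 in the untreated mutant, against 548, 585 and 423 in the untreated wild type, and the groups overlapped. *Snap25*, the plasma membrane SNARE, and *alphaSnap*, the adaptor that brings NSF to the SNARE complex, differed by -0.02 ± 0.06 and -0.01 ± 0.06. *Syt7*, a calcium sensor of the synaptotagmin family, had signals of 1138, 1313 and 1152 in the mutant, against 1454, 1325 and 1546 in the wild type, without overlap but short of the threshold (log2 -0.26 ± 0.08, limma adjusted p = 0.0559).

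Among endocytosis genes, 4 of the 8 measured were lower in the untreated mutant. *Amph*, encoding the membrane-curving protein amphiphysin, which in flies is also known for muscle T-tubules, had signals of 1280, 1336 and 1240 in the mutant, against 1500, 1482 and 1636 in the wild type (log2 -0.26 ± 0.06, limma adjusted p = 0.0149). *EndoA*, encoding endophilin A, which brings synaptojanin to the vesicle neck, had 1056, 1140 and 1170 in the mutant, against 1274, 1375 and 1700 in the wild type (log2 -0.36 ± 0.09, limma adjusted p = 0.0243). The wild-type arrays of *EndoA* were spread, with replicate 3 far above the others, whereas the mutant arrays were close together.

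*lap*, the AP180 clathrin assembly protein, had signals of 741, 724 and 706 in the untreated mutant, against 831, 841 and 863 in the untreated wild type (log2 -0.22 ± 0.06, limma adjusted p = 0.0322). Its second probe set was lower too, at 137, 210 and 140 in the mutant, against 220, 193 and 258 in the wild type, but with arrays that overlapped (log2 -0.46 ± 0.13, limma adjusted p = 0.0498). *shi*, which encodes dynamin, the GTPase that severs the vesicle neck, had signals of 944, 982 and 930 in the mutant, against 1106, 1098 and 1121 in the wild type (log2 -0.22 ± 0.06, limma adjusted p = 0.0338). The wild-type arrays of *shi* had the lowest relative spread of all 31 genes in that group, with a coefficient of variation of 1.04%. Its other probe sets differed by -0.14 ± 0.06 and -0.02 ± 0.06 (limma adjusted p = 0.241 and 0.890), so neither was called.

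*AP-2alpha*, encoding the large subunit of the clathrin adaptor AP-2, had signals of 535, 800 and 731 in the untreated mutant, against 816, 939 and 933 in the untreated wild type (log2 -0.39 ± 0.14, limma adjusted p = 0.116). *Synj*, encoding the lipid phosphatase synaptojanin that uncoats vesicles, differed by -0.23 ± 0.08 (limma adjusted p = 0.112). The scaffold genes *Dap160* (intersectin) and *Eps-15* both differed by 0.04, with standard errors of 0.10 and 0.11. Of the vesicle-associated proteins, *Syn* (synapsin, which tethers reserve vesicles) differed by -0.18 ± 0.06, *Sap47* by -0.12 ± 0.07 and *Syngr* (synaptogyrin, a vesicle membrane protein) by -0.10 ± 0.05, and none was called. The arrays of *Syn* and *Syngr* did not overlap.

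The transmitter genes split. *VAChT*, which encodes the transporter that loads acetylcholine into vesicles, had signals of 601, 702 and 649 in untreated mutant heads, against 804, 786 and 867 in untreated wild-type heads. The arrays did not overlap, and the mutant level was 0.795 of the wild-type level (log2 -0.33 ± 0.06, limma adjusted p = 0.00809). *ChAT*, the acetylcholine-synthesising enzyme, within whose bounds *VAChT* lies in the gene table, had signals of 950, 789 and 869 in the mutant, against 930, 828 and 908 in the wild type (log2 -0.03 ± 0.08, limma adjusted p = 0.865). *VGAT*, the GABA and glycine vesicle transporter gene, had the highest difference of the 31 genes, with signals of 188, 201 and 212 in the mutant, against 160, 180 and 157 in the wild type (log2 0.26 ± 0.09, limma adjusted p = 0.100). *Gad1*, which encodes the GABA-synthesising enzyme, *VGlut*, the glutamate vesicle transporter, and *Vmat*, the monoamine vesicle transporter, differed by -0.11 ± 0.06, -0.20 ± 0.18 and -0.02 ± 0.11, and none was called. The 4 tested probe sets of *Vmat* ran from -0.32 to 0.11, none of them called.

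**Figure D4:**
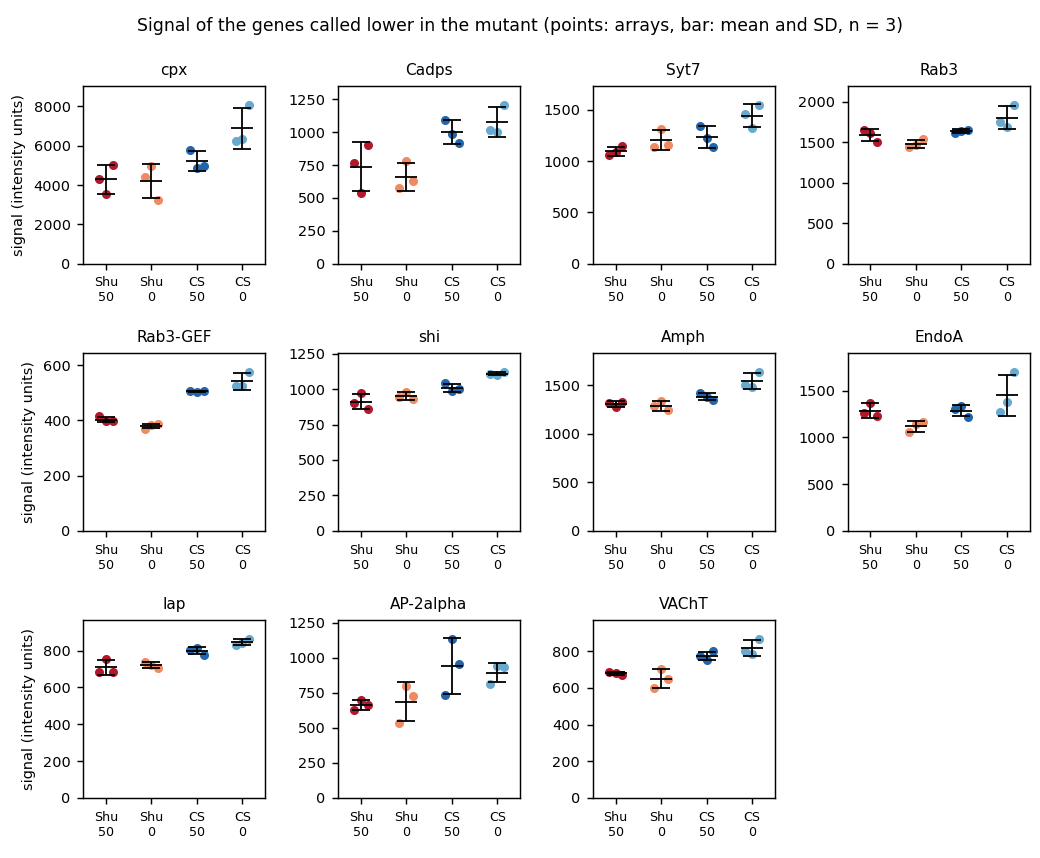
Signal in intensity units (y axes, from 0) of the 11 genes called lower in the mutant untreated or averaged over treatments; points are arrays and bars the mean and SD of 3. *Rab3-GEF* shows 2 separate levels, with all 6 mutant arrays between 370 and 415 and all 6 wild-type arrays between 502 and 576.

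Neuron genes without a vesicle role lay mostly below 0 as well. Of 7 such markers (*elav*, *fne*, *Appl*, *futsch*, *nrv3*, *CadN* and *para*), 6 were below 0 in the untreated mutant, with a median of -0.17, and *CadN*, a neuronal cadherin gene, was called lower (log2 -0.44 ± 0.11, limma adjusted p = 0.0333). Their summed signal was 8972 to 9363 in the untreated mutant and 9842 to 11491 in the untreated wild type, and the lowest signal of any of the 7 on these arrays was 70.1, of *para*. Most of that sum was the signal of *nrv3*, a sodium pump subunit gene, at 5913, 5569 and 5776 in the untreated mutant, against 6233, 6119 and 7264 in the untreated wild type. *elav* differed by -0.04 ± 0.08 and *para* by 0.27 ± 0.10 (limma adjusted p = 0.845 and 0.156). Between genotypes on lithium, 5 of the 7 markers were below 0, with a median of -0.04, against -0.07 over the 31 vesicle cycle genes. Averaged over treatments, 6 were below 0, with a median of -0.11, against -0.12 over the 31. In whole heads, fewer cells of a type and less RNA per cell cannot be told apart, and the part of neuron content in the differences above was not tested. In untreated heads 6 of 7 glial markers measured were below 0, with a median of -0.06, and *nrv2* (log2 -0.52 ± 0.09, limma adjusted p = 0.00504) and *Gli* (log2 -0.37 ± 0.09, limma adjusted p = 0.0290) were called lower. Of 5 fat body markers measured, 4 were above 0 and 1 below, and *Lsp2* (log2 0.41 ± 0.11, limma adjusted p = 0.0406) and *Fbp2* (log2 1.07 ± 0.26, limma adjusted p = 0.0247) were called higher. Of 4 photoreceptor markers 3 were above 0 (median 0.05), as were all 4 female and ovary markers tested (median 0.06). All 4 muscle markers were below 0 (median -0.09), and none of these lists had a call.

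On lithium, mutant heads were compared with wild-type heads on 6 other arrays. *Rab3-GEF* was the 1 gene of the 31 called, at signals of 415, 398 and 397 in lithium-treated mutant heads, against 507, 502 and 506 in lithium-treated wild-type heads. The mutant level was 0.800 of the wild-type level (log2 -0.32 ± 0.06, limma adjusted p = 0.0148), and the arrays were far from overlapping. Of all probe sets tested, 0.506% were called in this comparison, 0.178% lower. The call was lost in 6 of 23 alternatives: without the intensity trend, without any 1 array of the lithium-treated wild type, and without replicate 2 or 3 of the lithium-treated mutant.

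The other differences on lithium were mostly below 0 without passing the test: 25 of the 31 genes lay below 0, against 52.4% of all probe sets tested, and the median was -0.07, against -0.01. *AP-2alpha* had signals of 627, 701 and 660 in the lithium-treated mutant, against 737, 1135 and 956 in the lithium-treated wild type (log2 -0.48 ± 0.14, limma adjusted p = 0.157). *Cadps* had 768, 539 and 905 in the mutant, against 1096, 986 and 917 in the wild type (log2 -0.46 ± 0.15, limma adjusted p = 0.187). Both kept the groups apart, *Cadps* only by a few units.

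*lap* had signals of 685, 757 and 684 in the lithium-treated mutant, against 804, 814 and 779 in the lithium-treated wild type (log2 -0.17 ± 0.06, limma adjusted p = 0.203). *VAChT* had 689, 682 and 671 in the mutant, against 775, 755 and 799 in the wild type (log2 -0.19 ± 0.06, limma adjusted p = 0.217). *shi* differed by -0.15 ± 0.06 (limma adjusted p = 0.294) and its probe set of lowest signal by -0.24 ± 0.06 (limma adjusted p = 0.104). *cpx* overlapped between genotypes on lithium, at 4291, 3561 and 5034 in the mutant, against 5795, 4856 and 4969 in the wild type. The second probe set differed by -0.17 for *cpx* and by -0.13 for *Cadps* on lithium, and neither was called. *EndoA*, called without lithium, had a log2 difference of 0.00 ± 0.09 on lithium, with 1262, 1372 and 1225 in the mutant, against 1298, 1332 and 1219 in the wild type.

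The untreated and lithium-treated genotype comparisons share no array. The difference was below 0 in both for 21 of the 31 genes, against 31.6% of all probe sets tested, above 0 in both for 2 and of opposite sign for 8. In 8 genes every mutant array lay below every wild-type array in both comparisons: *AP-2alpha*, *Amph*, *Cadps*, *Rab3-GEF*, *Syn*, *VAChT*, *lap* and *shi*, where 3.21% of all probe sets tested did so. Non-overlapping lower arrays were seen for 15 of the 31 genes without lithium, against 11.2% of all probe sets tested, and for 11 on lithium, against 10.0%. The difference was smaller in size on lithium for 23 of the 31 genes and for 57.3% of all probe sets tested, but the interaction, which tests that change, called none of the 31 (limma adjusted p under 0.05), where 0.00888% of all probe sets tested were called. An unadjusted p under 0.05 was reached by 5 genes, all above 0, against 2.94% of all probe sets tested. The lowest interaction p of the 31 genes was that of *EndoA* (log2 0.36 ± 0.12, unadjusted p = 0.00846, limma adjusted p = 0.660).

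Averaged over both treatments, 10 of the 31 genes were lower in the mutant and none higher, where 7.92% of all probe sets tested were called, 4.52% lower. *Rab3-GEF* differed by -0.41 ± 0.04 (limma adjusted p = 2.28e-05), *VAChT* by -0.26 ± 0.04 (0.00247) and *Cadps* by -0.58 ± 0.10 (0.00279). These 3 genes and *lap* (-0.20 ± 0.04, adjusted p = 0.0061) were called in all 22 alternatives of this comparison. *cpx* (-0.50 ± 0.10), *shi* (-0.18 ± 0.04), *Amph* (-0.17 ± 0.04) and *Rab3* (-0.16 ± 0.04) were called as in untreated heads, while *AP-2alpha* (-0.44 ± 0.10, adjusted p = 0.0116) and *Syt7* (-0.22 ± 0.05, adjusted p = 0.020) were called in the average alone and *EndoA* (-0.18 ± 0.06, adjusted p = 0.0829) was not called. The second probe sets of *Cadps* and *cpx* differed by -0.05 and -0.08 in this average, and neither was called. Without an intensity trend in the variance 4 genes were called, and 5 without both arrays that stood apart.

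No gene of the 31 was called for lithium in either genotype. In wild-type heads 1.62% of all probe sets tested were called between lithium-treated and untreated arrays, 0.995% higher and 0.622% lower, and in mutant heads 1.86%. At an unadjusted limma p under 0.05 there were 9 genes in the wild type, all lower on lithium, against 6.43% of all probe sets tested. In the mutant there were 2, 1 in each direction, against 11.9%. The 95% intervals ran from -0.70 to 0.60 over the 31 genes in the wild type and from -0.40 to 0.44 in the mutant. In the mutant the interval lay within 0.5 of 0 for all 31 genes, and in the wild type for 28.

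**Figure D5:**
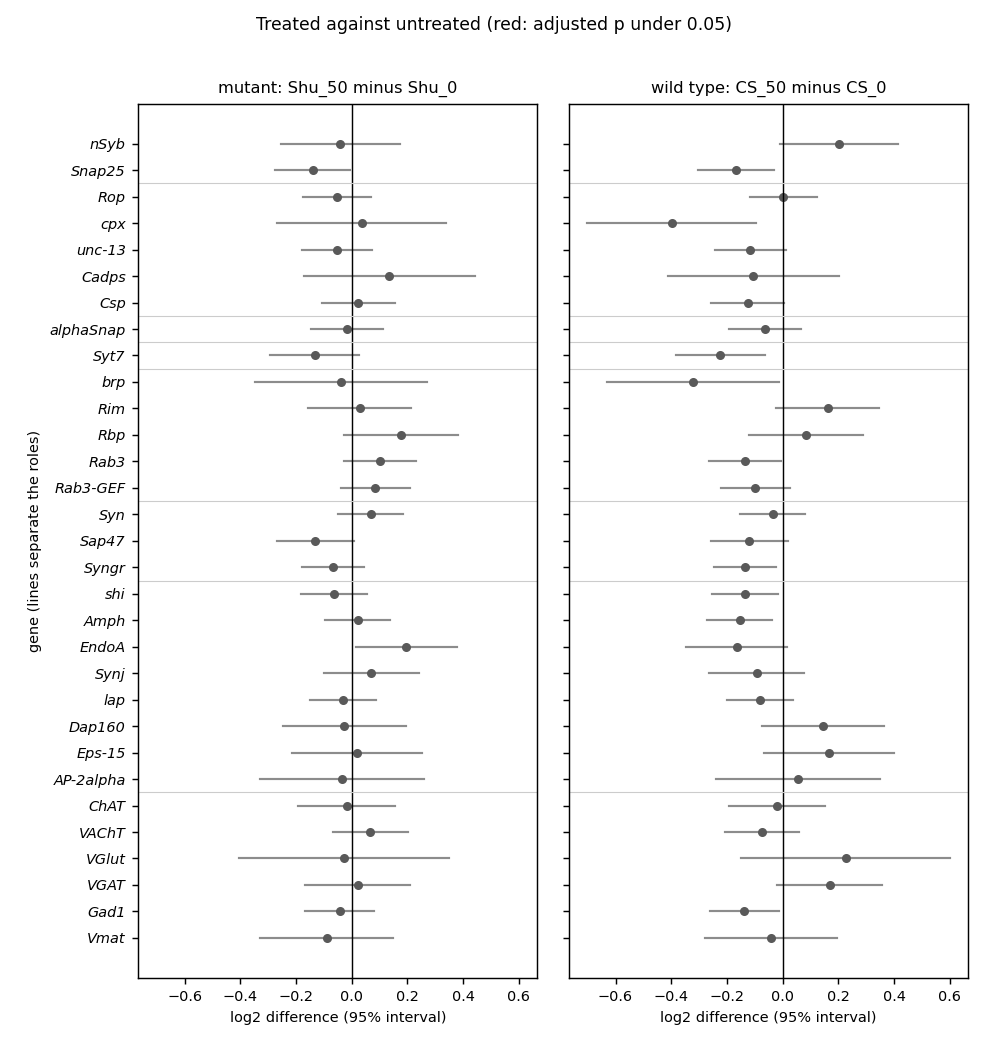
Log2 differences of treated minus untreated for the 31 genes, with 95% intervals, in the mutant (left) and the wild type (right). No gene is red in either panel; the wild-type points lie to the left for 22 genes, and the mutant points for 17.

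In wild-type heads 22 of the 31 differences were below 0, against 49.1% of all probe sets tested. For 11 genes the lithium-treated arrays all lay below the untreated ones, against 10.0% of all probe sets, and for none above. All 7 glial and all 4 photoreceptor markers measured were below 0 as well, with medians of -0.15 and -0.21, while 3 of 7 neuron markers were. All 4 female and ovary markers tested were below 0 too, with a median of -0.31. Of 5 fat body markers 3 were below 0, and *apolpp* and *Tsf1* were called lower. Of 4 muscle markers 3 were below 0, with *Mlc2* called lower and *TpnC41C* called higher. The *eIF-4a* 3'/5' log2 ratio was 2.43 to 2.51 on lithium and 2.66 to 2.96 without, and the part of these in the differences was not tested. The 5 genes of lowest p whose arrays did not overlap were all lower on lithium. *cpx* had 5795, 4856 and 4969 on lithium, against 6227, 6368 and 8078 without (log2 -0.40 ± 0.14, limma adjusted p = 0.213). *Amph* had 1423, 1377 and 1345 on lithium, against 1500, 1482 and 1636 without (log2 -0.15 ± 0.06, limma adjusted p = 0.214). The others were *Syngr* at 1914, 1990 and 1861 on lithium, against 2090, 2037 and 2200 without, *shi* at 1040, 986 and 1002 on lithium, against 1106, 1098 and 1121 without, and *Gad1* at 3483, 3508 and 3391 on lithium, against 3661, 3643 and 4142 without. Their differences were -0.13 for *Syngr* and *shi* and -0.14 for *Gad1* (limma adjusted p = 0.271, 0.304 and 0.318). The other *shi* probe sets lay above 0, at 0.11 ± 0.06 and 0.07 ± 0.06 (limma adjusted p = 0.459 and 0.727), and the mean of the 3 was at 0.014. This comparison uses the same untreated wild-type arrays as the untreated genotype comparison, and the median over the 31 genes, -0.09, was -0.05 without their replicate 3, against 0.00 over all probe sets tested.

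In mutant heads 17 of the 31 differences were below 0, against 53.2% of all probe sets tested, and 3 genes had arrays that did not overlap, against 15.8% of all probe sets. *EndoA* was at 1262, 1372 and 1225 on lithium, against 1056, 1140 and 1170 without (log2 0.20 ± 0.09, limma adjusted p = 0.368). *Snap25* was at 3609, 3852 and 3617 on lithium, against 3949, 4243 and 4022 without (log2 -0.14 ± 0.06, limma adjusted p = 0.400). *Rab3-GEF* was at 415, 398 and 397 on lithium, against 370, 383 and 386 without (log2 0.08 ± 0.06, limma adjusted p = 0.637). Of 7 neuron markers 6 were above 0 (median 0.14), while 5 of 7 glial and all 4 photoreceptor markers were below (medians -0.09 and -0.13), none called. Of 5 fat body markers 3 were below 0, with *apolpp* and *Tsf1* called lower. Of 4 muscle markers 2 were below 0, and *TpnC41C* was called higher. All 4 female and ovary markers tested were below 0 (median -0.21), with *dhd* called lower. The lithium differences of the 2 genotypes share no array. Over the 31 genes they were below 0 in both for 12, above 0 in both for 4 and opposite for 15. Of all probe sets tested, 41.9% were opposite. No gene of the 31 had non-overlapping arrays in the same direction in both. The share of all probe sets that did so was not counted. In single comparisons, 8.21% of all probe sets lay lower without overlap in the mutant and 10.0% in the wild type. The shares that lay higher were 7.57% and 9.14%.

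Averaged over genotypes, lithium called none of the 31 genes, where 4.13% of all probe sets tested were called, and 6 genes had an unadjusted p under 0.05, all lower, against 8.30% of all probe sets. The nearest were *Snap25*, at -0.15 ± 0.05 (limma adjusted p = 0.0726), and *Syt7*, at -0.18 ± 0.05 (limma adjusted p = 0.0783). Both were below 0 in each genotype, *Snap25* at -0.14 in the mutant and -0.17 in the wild type, and *Syt7* at -0.13 in the mutant and -0.22 in the wild type. Leaving out replicate 1 of the lithium-treated wild type called both, leaving out replicate 2 of the untreated wild type called *Syt7*, and leaving out replicate 2 of the lithium-treated mutant called *Snap25*.

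A second list of 41 genes of the same machinery (further clathrin coat, SNARE, active zone and transmitter uptake genes) had 35 with a probe set, all tested. In untreated heads 5 were lower and 1 higher in the mutant, where 2.96% of all probe sets tested were called lower and 2.11% higher. The median over the 35 genes was -0.03, against 0.01 over all tested. Of the 12 active zone and calcium entry genes, 3 were lower: *fife*, a Piccolo-RIM related active zone gene, at 328, 394 and 355 in the mutant, against 426, 478 and 578 in the wild type (log2 -0.45 ± 0.09, limma adjusted p = 0.0141), *RhoGAP100F*, the Syd-1 gene of active zone assembly (-0.37 ± 0.09, adjusted p = 0.0214), and *CASK*, a scaffold kinase gene (-0.21 ± 0.06, adjusted p = 0.0386). Of 9 further SNARE and synaptotagmin genes, 2 were lower: *Rph*, encoding the Rab3 effector rabphilin (-0.32 ± 0.08, adjusted p = 0.0292), and *tomosyn*, an inhibitor of SNARE assembly (-0.23 ± 0.06, adjusted p = 0.0424). None of the 8 coat and endocytosis genes was called. Over 23 alternatives the call was kept in 18 for *fife*, 16 for *RhoGAP100F*, 15 for *Rph* and 10 for *CASK* and *tomosyn*.

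The 1 gene that was higher was *Gat*, the plasma membrane GABA transporter gene known from glia, at 851, 774 and 797 in the untreated mutant, against 664, 719 and 699 in the untreated wild type (log2 0.22 ± 0.06, limma adjusted p = 0.0465), a call kept in 8 of 23 alternatives. On lithium no gene of this list was called between genotypes, and in the mutant none was called for lithium. *CASK* was lower on lithium in wild-type heads, at 1369, 1277 and 1285 on lithium, against 1562, 1451 and 1642 without (log2 -0.24 ± 0.06, limma adjusted p = 0.0374). In 11 of 23 alternatives that call was lost, and both *CASK* calls share the untreated wild-type arrays. The 5 other *fife* probe sets had signals no higher than 43.4, and none of the 4 that were tested was called.

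Averaged over treatments, 2 of the 35 genes of this list were higher in the mutant and 6 lower, where 3.40% of all probe sets tested were called higher and 4.52% lower. *AP-2sigma*, the small subunit of the clathrin adaptor AP-2, and *Syb*, a non-neuronal synaptobrevin gene, were both higher by 0.13, with standard errors of 0.04 (limma adjusted p = 0.0492 and 0.0473). The call was kept in 7 of 22 alternatives for *AP-2sigma* and in 6 for *Syb*. *Snap29*, *Rph*, *tomosyn*, *RhoGAP100F*, *fife* and *Gabat*, a GABA transaminase gene, were lower, by between -0.38 for *fife* and -0.16 for *Snap29*, the call of *Snap29* being kept in 6 of 22 alternatives and that of *Gabat* in 12. *para* was higher in the mutant in this average, at signals of 118, 102 and 107 in the lithium-treated mutant, 87.1, 99.9 and 82.8 in the untreated mutant, 80.7, 87.4 and 85.8 in the lithium-treated wild type, and 72.6, 77.9 and 70.1 in the untreated wild type (log2 0.31 ± 0.07, limma adjusted p = 0.0175).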

How the data were processed

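The 31 genes and all lists were chosen with earlier results of these data known. The deposited values are probe set intensity values on a linear scale, from total RNA labelled by a standard Affymetrix protocol per the labels; extraction was not supplied there, and the software is not given in the sources used here. The authors scaled the arrays, since each has the same trimmed mean. Of 18952 probe sets, 183 Affymetrix controls were left out, 13647 name 1 gene and 402 several. An offset of 6.26 (25th percentile of the other values) was added before log2. Dim probe sets, those whose mean was under the 40th percentile (11.5 signal units), were dropped, which left 11261 for testing, among them the chosen probe sets of all 31 genes. limma 3.58.1 under R 4.3.3 fitted 4 group means to 12 arrays, leaving 8 residual degrees of freedom, with an intensity trend; tests are two-sided, with Benjamini-Hochberg adjustment over all tested probe sets, and intervals are 95%. The scripts were tested on simulated data. Standard errors of the 31 genes had a median of 0.076; 3 arrays a group limit the precision. Called genes, and per comparison the 5 of lowest p with non-overlapping arrays, were named, with every other gene of the 31 by level. Alternatives were other offsets and filters, no trend, array weights, quantile normalization, the mean of a gene's probe sets, a replicate block, the arrays compared alone, and arrays left out. For replicate 2 of the lithium-treated wild type, title and description disagree on the number; the title was used. The labels and files used here name no genome build. The gene table (Release 6) therefore served for names, chromosomes, gene order and which gene lies within another, and its coordinates are not printed.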

Additional observations from a re-analysis of the deposited data

Results flagged for a closer look

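*Rab3-GEF* was the 1 gene of the 31 whose lithium-treated arrays all lay on opposite sides of the untreated arrays in the 2 genotypes: above in the mutant (log2 0.08 ± 0.06) and below in the wild type (log2 -0.10 ± 0.06). The interaction, which tests that difference, was 0.18 ± 0.08 on the log2 scale (unadjusted p = 0.0411, limma adjusted p = 0.734), so it did not pass the threshold after adjustment. How many of all probe sets tested lay on opposite sides in this way was not counted. Taken singly, 7.57% of them lay above without overlap in the mutant and 10.0% below in the wild type.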

How the results depend on the processing

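For the untreated genotype comparison (9 genes called), 1 was called without an intensity trend, 1 without both wild-type untreated replicate 3 and mutant untreated replicate 1, and 2 to 11 with 1 array left out. Over all probe sets tested the number called was 59 without the trend and 31 without both arrays, against 571. On lithium (1 called), the count was 0 without the trend, 2 with a replicate block (adding *AP-2alpha*) and 0 to 1 with 1 array left out; without replicate 1 of the lithium-treated wild type the 1 call was *AP-2alpha*. Averaged over treatments (10 called), it was 4 without the trend, 5 without both arrays and 8 to 12 with 1 array left out. For lithium averaged over genotypes (0 called), it was 0 to 2 with 1 array left out. *shi* turned to 0.014 (limma adjusted p = 0.949) for lithium in the wild type when its probe sets were averaged. Over the single genes followed and the medians, each counted once per comparison and alternative, 1606 values were kept. For a gene this means its direction and side of the threshold. For a median it means a shift under the spread between arrays of a group, whatever its sign. Besides the *shi* value above, 304 lost a call, 2 gained one (both *AP-2alpha*) and 4 medians moved. The genes followed were those called or named for a comparison and *para*. Calls gained by other genes, such as *Snap25* and *Syt7* for lithium averaged over genotypes, are not counted. Replicate numbers were not taken to pair arrays. The correlation of deviations of same-numbered arrays ran from -0.06 to 0.09, and that of differently numbered arrays from -0.08 to 0.07. In both genotype comparisons every same-numbered correlation was above 0, from 0.01 to 0.09, while most others were below. Deviations from a group mean add to 0 over its arrays, so values above 0 push the others below. The sign of the others is therefore no separate evidence. Whether the numbers pair arrays is not settled by these values. The causes of these changes were not tested.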

Other observations

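The arrays of a group differed in how closely the 31 genes repeated. The median coefficient of variation over the 31 genes was 4.97% in the lithium-treated mutant, 5.87% in the untreated mutant, 3.27% in the lithium-treated wild type and 7.43% in the untreated wild type. *VGlut* varied most in both untreated groups, at 31.4% in the mutant and 20.6% in the wild type, while *Cadps* varied most in the lithium-treated mutant and *AP-2alpha* in the lithium-treated wild type.

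Genes of other head tissues also differed. Averaged over treatments, the fat body genes *Lsp2*, a larval serum protein gene, and *Fbp2* were higher in mutant than in wild-type heads, by 0.44 ± 0.08 and 1.10 ± 0.18 on the log2 scale (limma adjusted p = 0.00255 and 0.00188), and *nrv2*, a sodium pump beta subunit gene of glia, was lower by the same fit (-0.34 ± 0.06, limma adjusted p = 0.00425). These 3 calls held in all alternatives that gave a value. In this average the glial markers split, with 5 of 7 lower in the mutant and 2 higher (median -0.08, highest 0.19). Of the 5 fat body markers, 4 were higher and 1 lower. *Gli*, encoding the septate junction protein gliotactin, was lower in untreated mutant than in untreated wild-type heads (-0.37 ± 0.09, limma adjusted p = 0.0290), a call kept in 16 of 23 alternatives. *wrapper*, a gene of axon-wrapping glia, was lower on lithium than without in wild-type heads (-0.85 ± 0.10, limma adjusted p = 0.000222), where no vesicle cycle gene of the 31 was called.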
